A study of Mus musculus with 14 samples.

Results

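The 10 genes examined were those for cytokine receptor chains, measured in T cells from the spleen of leukemic mice. They were chosen by gene symbol, as the receptors of the common gamma chain family (Il2rg, Il2rb, Il15ra, Il7r, Il4ra, Il21r and Il9r), the interleukin-6 receptor chain Il6ra, and both interleukin-10 receptor chains (Il10ra and Il10rb). All 10 were among the 24091 genes of the deposited count table. Each library came from the sorted spleen T cells of 1 mouse, 200000 cells per sample. The 8 CP CML mice (Mir142+/+BCR-ABL) are a model of chronic phase chronic myeloid leukemia, and the 6 BC CML mice (Mir142−/−BCR-ABL) a model of its blast crisis. The latter came from a cross of Mir142−/− mice with BCR-ABL mice, so that Mir142 was lost in the germline, in every cell type. Both groups carried the BCR-ABL fusion as a tet-off transgene under the SCLtTA driver, which acts in blood stem and progenitor cells, on a C57Bl/6j background, and it had been switched on for 3 weeks. The mice were 6 to 10 weeks old by the study's methods, animals of both sexes were used, and no mouse in the count table was free of BCR-ABL or received a treatment.

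The receptors of the common gamma chain family share the chain encoded by Il2rg, which pairs with a private chain for each cytokine and carries the signal through the kinase JAK3. The chain of Il2rb joins it to bind IL-2 and IL-15, and Il15ra encodes the chain that captures IL-15 with high affinity. In T cells, IL-7 and its receptor maintain naive and memory cells, while IL-2 and IL-15 drive the growth of activated and memory cells. IL-6 binds the chain of Il6ra and signals through the shared chain of Il6st (gp130). IL-10 binds the chain of Il10ra and signals together with the chain of Il10rb, which IL-22 and the type III interferons also use.

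Mir142, which encodes the microRNA deleted in BC CML, gives rise to a mature strand from each arm of its hairpin. Both are shown because a microRNA finds its targets mainly by its seed, bases 2 to 8 from the 5′ end, printed in capitals (RefSeq, GRCm38.p6).
mmu-miR-142a-5p: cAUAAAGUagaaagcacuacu
mmu-miR-142a-3p: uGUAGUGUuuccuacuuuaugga
They lie on the plus strand of chromosome 11, the 5p strand from 87756867 to 87756887 and the 3p strand from 87756903 to 87756925. The longest 3′UTR of each gene in GENCODE vM21, on the same build as mm10, was searched on the sense strand for matches to each seed. An 8mer was ACTTTATA (5p) or ACACTACA (3p), and the 7-base matches were the first or last 7 of these letters, counted only where no 8mer covered them.

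Of the 10 receptor genes, 3 held a match, each a single 7-base match to miR-142-3p, and none held an 8mer of either strand. The 3 matches are printed with the 11 bases before and the 12 bases after, with the match in capitals, read along the transcript.
Il7r: catccaccattCACTACAgtgaagatctct
Il6ra: ccgctcactgcACACTACtgtatgaaccct
Il10ra: tctgtgttagtACACTACcctttaggtggc
In mm10 the Il7r match lies on the minus strand at chr15:9505981-9505987, the Il6ra match on the minus strand at chr3:89870219-89870225, and the Il10ra match on the minus strand at chr9:45254785-45254791. The Il7r match falls outside the span listed for the gene with the counts. For comparison, 30.7% of the 11509 tested genes with a 3′UTR held a match to either strand, 12.1% a match to miR-142-3p and 3.04% its 8mer. The median 3′UTR was 1956.5 bases long in the receptor genes and 1187 bases in the tested genes. A match is a description of the letters and does not show that the microRNA binds there.

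The libraries held between 15703702 and 19914531 counted reads. Mir142 had 302 to 650 reads in each CP CML mouse and 0 in each BC CML mouse, as the labels state. The 10 T cell markers summed to 3706 to 4271 CPM, reads relative to the scaled size of the library, in CP CML and to 4676 to 5088 CPM in BC CML, with none at 0 (6 rose and 1 fell). Markers of cells outside the T lineage were also present. The 12 myeloid markers summed to 87.5 to 466 CPM in CP CML and to 561 to 1368 CPM in BC CML (10 rose). The 8 B cell markers summed to 60.7 to 180 CPM and 103 to 511 CPM (6 rose), and the 8 NK cell markers, of which Klra4 was at 0 in all mice, to 145 to 179 CPM and 338 to 613 CPM (6 rose and 1 fell). The 7 basophil and mast cell markers summed to 5.24 to 12.5 CPM and 19.4 to 52.5 CPM (2 rose), and the 7 erythroid markers, of which 5 were in the table, to 15.2 to 62.9 CPM and 41.4 to 71.7 CPM (1 rose). Within the T lineage, the 6 regulatory T cell markers summed to 502 to 567 CPM and 492 to 664 CPM. Of these 3 rose (Ikzf2, Tnfrsf18 and Tnfrsf9) and 2 fell (Foxp3 and Ctla4), so the sum does not show a common direction. The share of these cells in the values of the receptor genes and of the genes listed below was not tested. In bulk samples fewer cells of a type cannot be told apart from less RNA per cell. The labels name no batch, but the sample names carry one shared number throughout CP CML and another throughout BC CML. Its meaning is not given, and whatever it marks cannot be told apart from the genotype.

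The groups were compared, BC CML against CP CML, with the quasi-likelihood test of edgeR over the 12248 genes with enough reads, all 10 receptor genes among them, with Benjamini-Hochberg adjustment over all genes. Library sizes were scaled by edgeR's TMM method, and a gene was called at an adjusted p-value below 0.05. Of the 10 receptor genes, 8 were called, against 65.2% of all genes tested, so the number called was near that of genes at large. Of these 5 rose (Il2rg, Il2rb, Il15ra, Il4ra and Il10rb), against 32.6% of all genes, and 3 fell (Il7r, Il6ra and Il21r), against 32.7%. In 6 of the 10 the CPM of the groups did not overlap, against 36.9% of all genes. In 4 of these every BC CML mouse was higher (19.3% of all genes) and in 2 lower (17.6%). A change of at least 2-fold was called in 3 (Il6ra, Il15ra and Il7r), against 12.9%, and Il7r lay at the 2-fold limit, so that 2 were left under 4 of 7 other settings. The median size of the change, on the log2 scale and regardless of sign, was 0.65 in the receptor genes and 0.28 in all genes tested. The set was chosen with earlier results of these data known, so this difference can reflect the choice. The plot of CPM by mouse shows every value behind these counts, and the plot of fold changes sets the genes side by side.

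**Figure D1:**
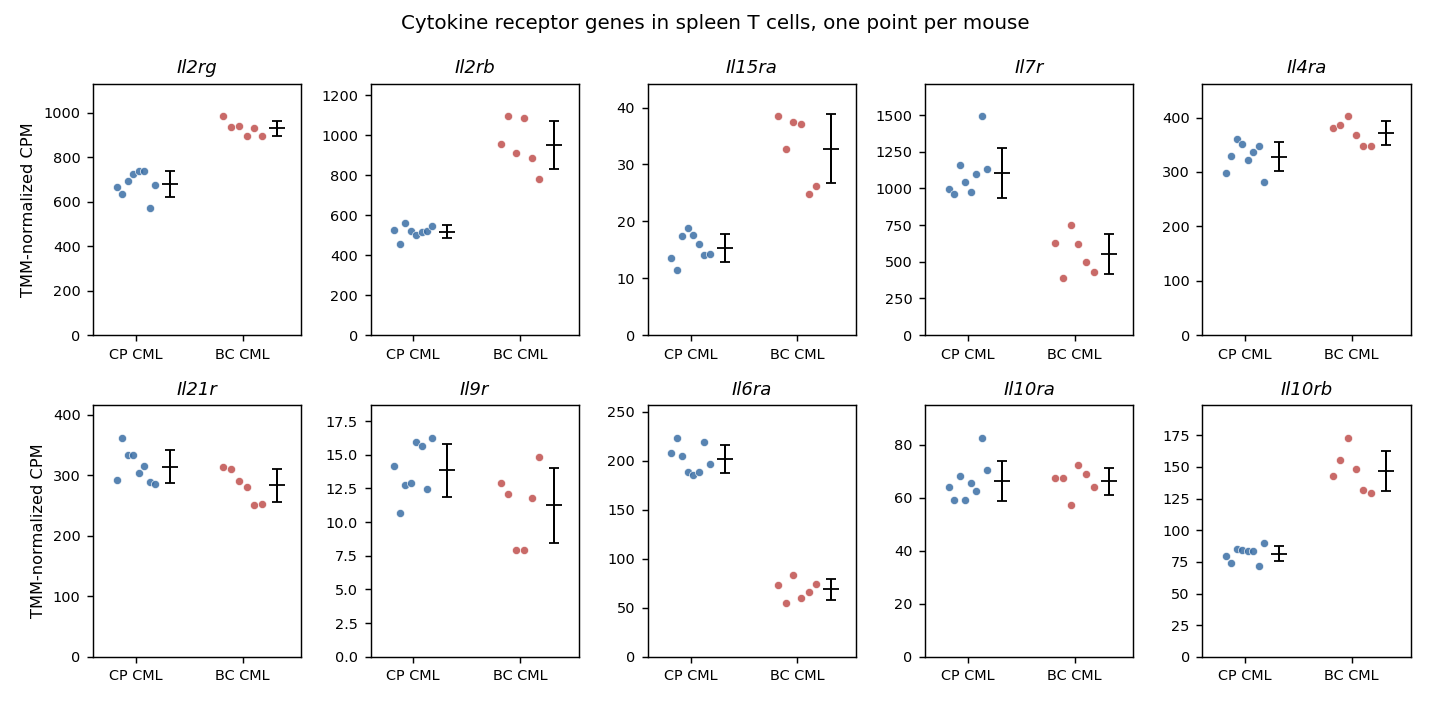
TMM-normalized CPM (vertical axes, each from 0) of the 10 receptor genes in 8 CP CML mice (blue) and 6 BC CML mice (red), 1 point per mouse, with the mean and SD of each group in black. The groups are apart for Il2rg, Il2rb, Il15ra, Il7r, Il6ra and Il10rb and overlap for the other 4.

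**Figure D2:**
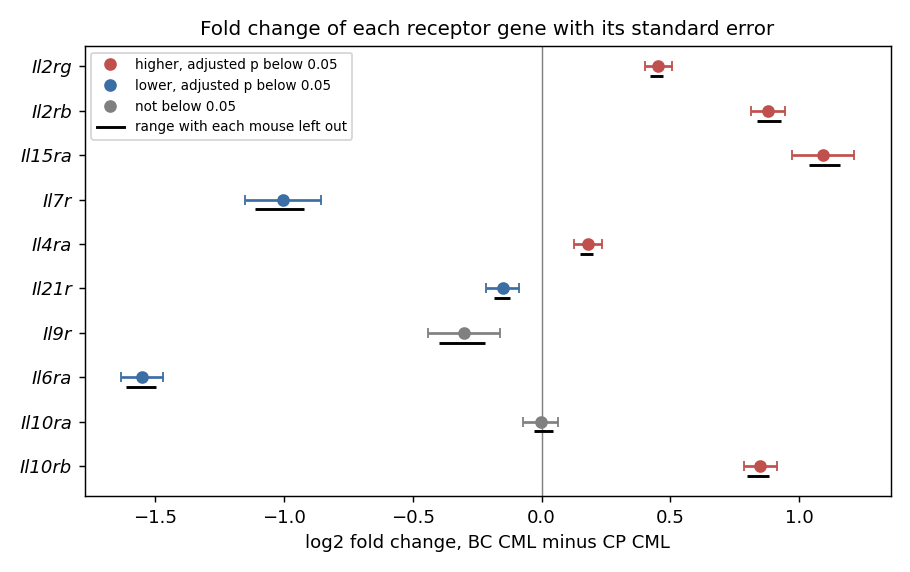
Log2 fold change of each receptor gene, BC CML minus CP CML (horizontal axis), with its standard error from edgeR's quasi-likelihood test, and the range of the fold change when each of the 14 mice was left out in turn (black lines). Il6ra lies lowest at −1.55 and Il15ra highest at 1.09, and the line of Il10ra crosses 0.

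The shared chain Il2rg, the IL-2 and IL-15 chain Il2rb and the IL-15 chain Il15ra all rose. Il2rg is listed at chrX:101264385-101268255 (minus strand). Its CPM were between 574 and 741 in the CP CML mice (median 683) and between 895 and 984 in the BC CML mice (median 934). The lowest BC CML mouse exceeded the highest CP CML mouse, and CP CML replicate 7 was the lowest of all. The mean was 680 ± 57.2 (SD, n = 8) in the CP CML mice, against 931 ± 33.2 (SD, n = 6) in the BC CML mice. On the log2 scale the rise was 0.45 ± 0.05 (SE, adjusted p = 5.82e-07). GENCODE places a further coding gene model, Gm20489, over Il2rg on the same strand. Gm20489 is not among the genes of the deposited count table. How reads shared by both were assigned is not given in the sources used here.

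Il2rb, the signaling chain for IL-2 and IL-15, is listed at chr15:78480549-78495066 (minus strand). Its CPM were between 456 and 563 in CP CML (median 522) and between 783 and 1095 in BC CML (median 935). The groups did not overlap, and the BC CML mice were spread more widely, with replicates 2 and 4 near the top and replicate 6 at the bottom. The log2 fold change was 0.88 ± 0.07 (SE, adjusted p = 2.97e-09), from a mean of 518 ± 31.5 (SD, n = 8 mice) to 954 ± 120 (SD, n = 6 mice).

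Il15ra, which encodes the IL-15 capture chain, lies at chr2:11705293-11733985 (plus strand) and was far less abundant. Its CPM were between 11.4 and 18.8 in CP CML (median 15.1) and between 24.8 and 38.4 in BC CML (median 34.9). The groups were again apart, although BC CML replicates 5 and 6 sat well below the other 4 BC CML mice. The log2 fold change was 1.09 ± 0.12 (SE, adjusted p = 6.62e-07), or 2.13-fold. Behind these values stood 186 to 376 reads per CP CML mouse and 458 to 715 reads per BC CML mouse. The 10 memory and effector T cell markers, which all rose, summed to 686 to 850 CPM in CP CML and to 1544 to 2081 CPM in BC CML, and their part in the rise of Il2rb and Il15ra was not tested. The marker sums of NK, myeloid, and basophil and mast cells given above were also higher in BC CML, and their part was not tested either.

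Il7r moved the other way. It encodes the IL-7 binding chain and is listed at chr15:9506159-9529876 (minus strand). Its CPM were between 959 and 1490 in the CP CML mice (median 1070) and between 388 and 751 in the BC CML mice (median 560). No BC CML mouse reached the lowest CP CML mouse. CP CML replicate 7, at 1490, stood apart above its group, and BC CML replicates 2 and 6 were the lowest of all. The mean was 1107 ± 171 (SD, n = 8) in the CP CML mice, against 552 ± 138 (SD, n = 6) in the BC CML mice, and the log2 fold change was −1.004 ± 0.15 (SE, adjusted p = 3.01e-05). Without CP CML replicate 7 it was −0.93 ± 0.13 (SE, adjusted p = 3.43e-05). Of the 8 naive T cell markers, 7 fell and 1 rose. Their sum was 4045 to 5167 CPM in CP CML and 2581 to 3314 CPM in BC CML, and its part in the fall of Il7r was not tested.

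The private chains for IL-4, IL-21 and IL-9 differed little between the groups. Il4ra, the chain that IL-4 and IL-13 receptors share, is at chr7:125552282-125579474 (plus strand), and Il21r, the IL-21 chain, lies 23954 bases further along the same strand at chr7:125603429-125633570. Il4ra was at 281 to 361 CPM in CP CML (median 333) and at 347 to 402 CPM in BC CML (median 375). The ranges overlapped, and the small rise of 0.18 ± 0.05 on the log2 scale (SE) passed the test (adjusted p = 0.0071).

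Il21r was at 286 to 362 CPM in CP CML (median 310) and at 251 to 315 CPM in BC CML (median 286). Only BC CML replicates 5 and 6, and by a small margin replicate 4, were below the whole CP CML range. Its log2 fold change of −0.15 ± 0.06 (SE, adjusted p = 0.0443) was close to the threshold and no longer passed in 8 of the 14 fits that each left out 1 mouse, where the adjusted p reached 0.108. These neighbouring genes thus had called changes of opposite sign, both with overlapping ranges.

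Il9r, which encodes the IL-9 chain, is at chr11:32188997-32200279 (minus strand). It had only 151 to 289 reads in any mouse. It was at 10.7 to 16.2 CPM in CP CML (median 13.5) and at 7.89 to 14.9 CPM in BC CML (median 11.9). BC CML replicates 3 and 4 were the lowest of all mice, and the other 4 BC CML mice lay inside the CP CML range. The log2 fold change of −0.30 ± 0.14 (SE, adjusted p = 0.0681) did not pass the threshold, but it passed without CP CML replicate 2 (adjusted p = 0.0369) or without BC CML replicate 6 (adjusted p = 0.0164).

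Il6ra had the largest change of the 10 genes. It encodes the IL-6 binding chain and is listed at chr3:89869324-89913196 (minus strand). Its CPM were between 186 and 223 in the CP CML mice (median 201) and between 55.3 and 83.7 in the BC CML mice (median 69.9). The highest BC CML mouse, replicate 3, had less than any CP CML mouse by more than the width of either group. The mean was 202 ± 14.4 (SD, n = 8) in the CP CML mice, against 68.9 ± 10.4 (SD, n = 6) in the BC CML mice. On the log2 scale the change was −1.55 ± 0.08 (SE, adjusted p = 5e-11).

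Il6st, which encodes the signaling partner gp130, did not pass the test. It was at 417 to 470 CPM in CP CML (median 431) and at 399 to 543 CPM in BC CML (median 428), with a log2 fold change of 0.03 ± 0.06 (SE, adjusted p = 0.679). Unlike the receptor genes it had an 8mer of miR-142-3p, which is shown for that reason (plus strand, chr13:112506263-112506270), beside 5 shorter matches to either strand. Among all 49 genes of the lists below, 19 held a match to either strand, of which 5 were among the 14 higher, 3 among the 12 lower, 8 among the 14 not called and 3 among the 9 not tested.
Il6st: gaccagaattcACACTACAaggctggcacc
The sheddase genes Adam17 and Adam10 encode proteases that can release the IL-6 receptor from the cell surface. Adam17 rose from 109 ± 6.43 CPM (SD, n = 8 mice) to 139 ± 6.04 CPM (SD, n = 6 mice), a log2 fold change of 0.35 ± 0.04 (SE, adjusted p = 1.2e-06) with no overlap between groups. Adam10 was at 203 ± 9.32 CPM (SD, n = 8 mice) and 206 ± 7.36 CPM (SD, n = 6 mice), with an adjusted p of 0.556.

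The chains of the IL-10 receptor differed from each other. Il10rb, the accessory chain, is at chr16:91406235-91425834 (plus strand). Its CPM were between 71.8 and 89.7 in CP CML (median 83.7) and between 129 and 173 in BC CML (median 146). The groups did not overlap, with BC CML replicates 5 and 6 the lowest of their group and replicate 3 the highest. The log2 fold change was 0.85 ± 0.06 (SE, adjusted p = 2.62e-09), from a mean of 81.5 ± 6.07 (SD, n = 8 mice) to 147 ± 16.1 (SD, n = 6 mice). GENCODE places the coding gene model Gm21970 over Il10rb on the same strand, so reads of the 2 may not have been separated. It also places antisense models on the opposite strand of Il4ra (Gm44876) and Il6ra (Gm42809). None of these models is listed in the deposited count table, and whether counting used strand is not given in the sources used here.

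Il10ra, the IL-10 binding chain, is at chr9:45253839-45269146 (minus strand). It was at 59.1 to 82.4 CPM in CP CML (median 64.7) and at 57.3 to 72.1 CPM in BC CML (median 67.4). The ranges overlapped, and CP CML replicate 7 was the highest mouse. The mean was 66.4 ± 7.57 (SD, n = 8) in the CP CML mice, against 66.2 ± 5.07 (SD, n = 6) in the BC CML mice. The log2 fold change was −0.00 ± 0.07 (SE, adjusted p = 0.966), and its sign changed with the normalization. A pseudogene on the opposite strand (Gm20612) and a microRNA gene on the same strand (Mir7086) overlap it in GENCODE, and only Mir7086 is listed in the deposited count table. Of the 3 receptor genes with a match to miR-142-3p, Il6ra and Il7r fell and Il10ra was not called.

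Levels of different genes were compared as CPM per kb of the gene length given with the counts. In CP CML the most abundant receptor transcripts were Il2rg, at 286 CPM per kb, and Il7r, at 264 CPM per kb, whose ranges over mice overlapped. Il2rb followed at 193 CPM per kb, below the range of both. Il21r came next at 94.9 CPM per kb, and Il6ra, at 60.0, and Il4ra, at 56.9, overlapped behind it. Il10rb was at 30.5 CPM per kb and Il10ra at 19.0, apart from each other and from their neighbours. Il9r, at 4.48 CPM per kb, and Il15ra, at 3.74, were the lowest and overlapped.

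In BC CML the order was different. Il2rg stayed first at 392 CPM per kb, but Il2rb, at 355, now overlapped it, and Il7r followed at 132 CPM per kb, apart from Il2rb. Il21r, at 85.5 CPM per kb, overlapped Il7r, and was followed by Il4ra at 64.5 and Il10rb at 54.9, which overlapped each other. Il6ra had dropped to 20.5 CPM per kb and overlapped Il10ra, at 19.0. Il15ra, at 7.99 CPM per kb, was now clear of Il9r, which was last at 3.64.

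**Figure D3:**
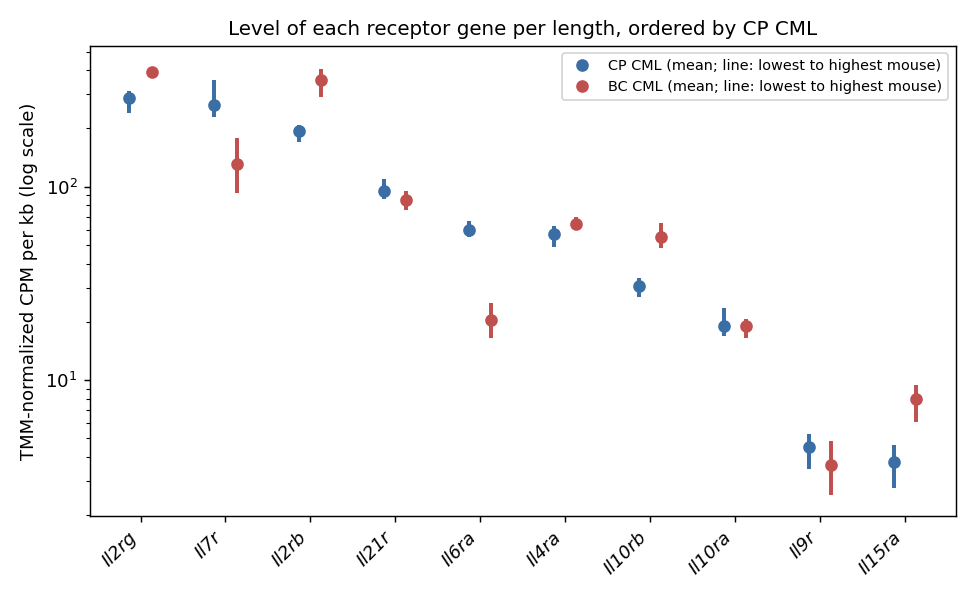
Level of the 10 receptor genes as TMM-normalized CPM per kb (vertical log axis), ordered by their mean in CP CML, with points for the mean and lines from the lowest to the highest mouse in CP CML (blue, 8 mice) and BC CML (red, 6 mice). Il2rg is the most abundant in both groups, while Il7r and Il6ra lie lower and Il2rb, Il10rb and Il15ra higher in BC CML.

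Ratios of 2 chains within a mouse do not depend on library size, and 3 were compared by exact permutation (two-sided, all 3003 splits of the 14 mice), with Benjamini-Hochberg adjustment over the 3. The ratio of Il7r to Il2rg per length was between 0.748 and 1.47 in CP CML (median 0.854) and between 0.235 and 0.452 in BC CML (median 0.331). The groups were apart, by −1.49 on the log2 scale (exact p = 0.000333, the smallest the splits allow, adjusted p = 0.0005). CP CML replicate 7, which combined the highest Il7r with the lowest Il2rg, was far above the other CP CML mice.

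The ratio of Il2rb to Il2rg was between 0.598 and 0.802 in CP CML (median 0.668) and between 0.773 and 1.07 in BC CML (median 0.858). The ranges overlapped slightly, and the difference was 0.42 on the log2 scale (exact permutation p = 0.000666, adjusted p = 0.000666). The ratio of Il6ra to Il6st was between 0.991 and 1.17 in CP CML (median 1.03) and between 0.301 and 0.480 in BC CML (median 0.333). Transcripts of the binding and signaling chains were thus at near equal levels per listed length in CP CML and at about 1 to 3 in BC CML. The difference was −1.58 on the log2 scale (exact permutation p = 0.000333, adjusted p = 0.0005). The longest 3′UTR of both genes runs beyond the span listed with the counts, so the near equal level depends on the length used. These ratios restate single-gene changes given above and are not independent of them.

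**Figure D4:**
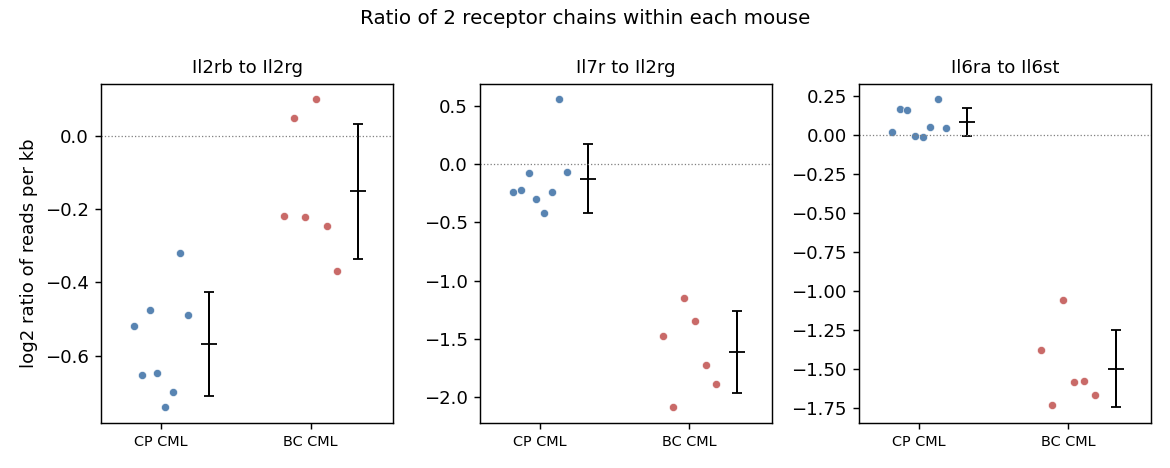
Log2 ratio of reads per kb of 2 chains within each mouse (vertical axes) for Il2rb to Il2rg, Il7r to Il2rg and Il6ra to Il6st in 8 CP CML mice (blue) and 6 BC CML mice (red), 1 point per mouse, with the mean and SD of each group in black. Il7r to Il2rg and Il6ra to Il6st are lower in every BC CML mouse than in any CP CML mouse, while Il2rb to Il2rg is higher in BC CML with ranges that overlap slightly.

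Further receptor chains (12 in all) that pair with these genes or stand close to them were listed, and 9 passed the filter. Of these 4 rose, 2 fell and 3 were not called, with a median log2 fold change of 0.12, against −0.01 over all genes tested. The number called was near the 65.2% of all genes (32.6% higher and 32.7% lower). Without Ifnlr1, which had few reads, 3 of 8 rose and the median was 0.08. Il13ra1, which pairs with Il4ra to bind IL-13, rose by 1.69 ± 0.23 on the log2 scale (SE, adjusted p = 4.64e-06) from 0.651 to 2.02 CPM in CP CML to 2.50 to 6.07 CPM in BC CML. Lifr, a partner of gp130, rose from 2.25 to 7.48 CPM to 13.3 to 33.2 CPM (log2 fold change 2.33 ± 0.27, SE, adjusted p = 3.07e-06). Both were apart between groups but at low levels.

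Ifnlr1, which pairs with Il10rb for type III interferons, is among those counted as higher, but had only 0 to 12 reads per CP CML mouse and 11 to 42 per BC CML mouse. It passed the filter through BC CML, where it was higher. Il27ra, another partner of gp130, rose slightly (0.24 ± 0.06, SE, adjusted p = 0.00126). Crlf2, which pairs with Il7r to bind TSLP, fell by 0.32 on the log2 scale (SE 0.06, adjusted p = 8.09e-05), and Il11ra1, the IL-11 chain, fell by 0.50 (SE 0.14, adjusted p = 0.00462). Il2ra, the alpha chain for IL-2, was at 71.6 to 92.6 CPM in CP CML and 71.3 to 107 CPM in BC CML and was not called (0.12 ± 0.08, SE, adjusted p = 0.197), nor was Il20rb. Il20ra, Il22ra1 and Osmr had too few reads for a test.

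Of the 11 genes for the cytokines themselves, 5 passed the filter, with 2 higher, 2 lower and 1 not called (median log2 fold change 0.04), against 65.2% of all genes called. Without Il10 and Il2, which were below the read minimum in most BC CML mice, 2 of 3 rose, 0 fell and the median was 0.81. All 5 were sparse in these libraries of sorted T cells, and the share of cells outside the T lineage in their reads was not tested. Il15 rose by 1.72 ± 0.26 on the log2 scale (SE, adjusted p = 1.79e-05), on 5 to 18 reads per CP CML mouse and 27 to 55 per BC CML mouse. Il21 rose by 0.81 ± 0.26 (SE, adjusted p = 0.0117), with BC CML replicate 5 at 21.8 CPM and the other BC CML mice at 8.66 CPM or less. Without that mouse the rise of Il21 was 0.39 ± 0.12 (SE, adjusted p = 0.0106). Il10 was counted as lower on 14 to 22 reads per CP CML mouse and 3 to 14 per BC CML mouse, and passed the filter through CP CML. Il2, also counted as lower, had 7 to 25 and 3 to 15 reads and lost its call in 9 of the 14 fits without 1 mouse. Il4 was not called (0.04 ± 0.26, SE, adjusted p = 0.892), and Il6, Il7, Il9, Il13, Il22 and Tslp had too few reads for a test.

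Of the kinases and transcription factors that carry these signals, 8 were analysed here and all passed the filter, with 4 lower and 4 not called (median log2 fold change −0.06), against 32.7% of all genes lower and 65.2% called. Stat5b, which acts downstream of IL-2, IL-7 and IL-15, fell by 0.47 (SE 0.04, adjusted p = 4.3e-08), from 247 to 288 CPM to 174 to 207 CPM. The groups did not overlap. Jak3, the kinase bound by the common gamma chain, fell by 0.20 (SE 0.08, adjusted p = 0.0331), Stat6 by 0.15 (SE 0.06, adjusted p = 0.0404) and Stat3 by 0.10 (SE 0.04, adjusted p = 0.0476). These 3 calls were lost in 7, 7 and 10 of the 14 fits without 1 mouse. Jak1, Jak2, Tyk2 and Stat5a were not called.

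Of 8 target and feedback genes of the same cytokines, 4 rose, 2 fell and 2 were not called (median log2 fold change 0.37). The number called was near the 65.2% of all genes. Cish, a feedback inhibitor induced by STAT5, was at 35.7 to 49.7 CPM in CP CML (median 39.2) and at 102 to 162 CPM in BC CML (median 158). It rose by 1.88 ± 0.10 on the log2 scale (SE, adjusted p = 1.03e-10), and Socs2, which is also induced by STAT5, rose by 0.84 ± 0.12 (SE, adjusted p = 1.36e-05). Socs1 rose by 0.65 ± 0.11 (SE, adjusted p = 0.0001) and the survival kinase gene Pim2 by 0.36 ± 0.11 (SE, adjusted p = 0.00824). Socs3, the feedback inhibitor that acts on gp130, was at 388 to 524 CPM in CP CML and at 203 to 348 CPM in BC CML, and fell by 0.76 (SE 0.11, adjusted p = 1.81e-05). Pim1 fell by 0.72 (SE 0.11, adjusted p = 5.58e-05), while Bcl2 and Mcl1 were not called.

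Transcription factor genes (8 in all) known to regulate Il7r or Il2rb were listed, and 3 rose, 2 fell and 3 were not called (median log2 fold change −0.04), again near the 65.2% of all genes called. Gfi1, a repressor of Il7r, was at 23.7 to 29.4 CPM in CP CML and at 44.0 to 56.0 CPM in BC CML and rose by 0.93 ± 0.06 on the log2 scale (SE, adjusted p = 5.33e-10). Tbx21 (T-bet) rose by 1.12 ± 0.11 (SE, adjusted p = 2.12e-07) and Eomes by 1.73 ± 0.11 (SE, adjusted p = 1.5e-09), both activators of Il2rb and both also in the list of memory and effector markers. Runx1 fell by 0.61 (SE 0.08, adjusted p = 2.36e-06) and Ets1 by 0.52 (SE 0.05, adjusted p = 4.18e-08). The groups did not overlap in 5 of the 8, against 36.9% of all genes. Foxo1, Foxp1 and Gabpa were not called.

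**Figure D5:**
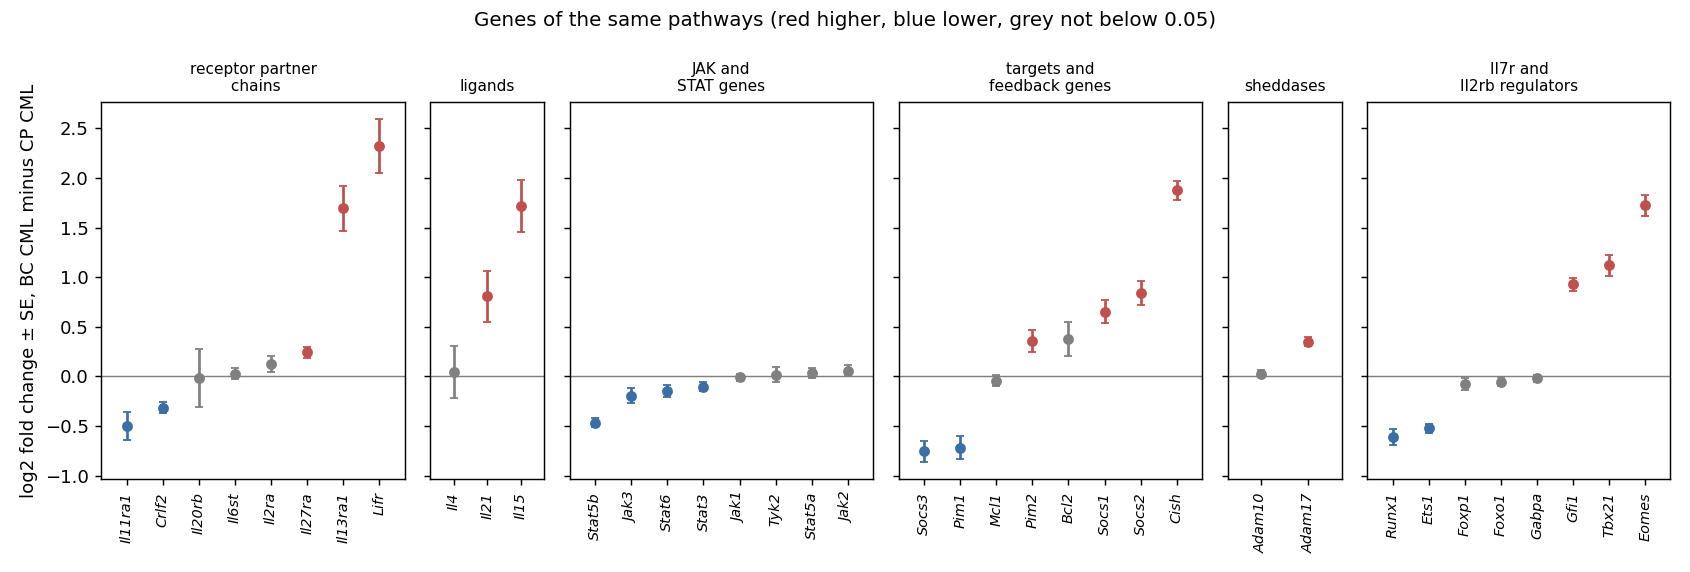
Log2 fold change with its standard error, BC CML minus CP CML (vertical axis), of the tested genes in 6 lists around the receptors, from the quasi-likelihood test, in 8 CP CML and 6 BC CML mice (red higher, blue lower, grey not called). The JAK and STAT genes lie between −0.47 (Stat5b) and 0.06 (Jak2), and Lifr lies highest at 2.33. Ifnlr1, Il10 and Il2 are not drawn because most mice of 1 group were below the read minimum of the filter.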

How the data were processed

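Per the labels, total RNA of each mouse was made into mRNA libraries and sequenced with paired reads of 101 bases. The submitters' processing notes name Trimmomatic, STAR 2.6.0, HTSeq 0.11.1, edgeR and mm10. The authors deposited raw counts per gene, without normalization; the annotation and strand setting of counting are not given in the sources used here. Counts were analysed with edgeR 4.0.16 in R 4.3.3 (filterByExpr, TMM, robust glmQLFit, glmQLFTest, Benjamini-Hochberg at 0.05 over 12248 genes), with the SE computed from the fold change and F. The likelihood ratio test of edgeR, the one named in the study's methods, was run as an alternative, as were DESeq2 1.42.0 and other scalings and filters. The fits were tested on simulated data. Ratios used reads plus 0.5. The receptor genes and the gene lists were chosen with earlier results of these data known. Named were all 10 receptor genes, Mir142, Il6st, Il2ra and up to 6 genes per list by p-value. Uncalled list members were also named after their values were seen, to account for each list, as were the regulatory T cell markers that were called. Mice of a group differed beyond sampling noise (chi-square per degree of freedom 3.09 to 22.8), so none was counted as a repeat. A further gene of the lists is not reported here.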

Additional observations from a re-analysis of the deposited data

Results flagged for a closer look

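A value was looked at again where 1 mouse stood apart from its group, by the gap to the nearest mouse as a share of the group's range (Dixon's critical value). Of 112 groups of values 13 were met, where chance gives about 1 in 20, or 5.6. Among the receptor genes, CP CML replicate 7 was at 1490 CPM of Il7r, with 1158 CPM in the next mouse (a gap of 0.625 of the range). The log2 ratio of Il7r to Il2rg was 0.56 in that mouse, with −0.07 in the next (0.645). The same mouse was highest for Ets1 (2362 CPM, next 2117 CPM, 0.55) and lowest for Tbx21 (24.5 CPM, next 34.7 CPM, 0.526).

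CP CML replicate 8 was lowest for Crlf2 (20.7 CPM, next 23.9 CPM, 0.722), highest for Ifnlr1 (0.755 CPM, next 0.324 CPM, 0.57) and highest for the NK cell marker sum (179 CPM, next 159 CPM, 0.571). CP CML replicate 2 was highest for Stat5b (288 CPM, next 265 CPM, 0.547), and CP CML replicate 3 for Cish (49.7 CPM, next 40.4 CPM, 0.664). In BC CML, replicate 1 was highest for Crlf2 (21.8 CPM, next 19.3 CPM, 0.749), replicate 5 for Il21 (21.8 CPM, next 8.66 CPM, 0.825), and replicate 6 was lowest for Cish (102 CPM, next 142 CPM, 0.662). BC CML replicate 2 had the fewest reads of its group (16145537, next 18319039, 0.668).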

How the results depend on the processing

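Between 7 and 8 of the 10 receptor genes were called under 7 alternatives, and 7 to 8 when each mouse was left out. Il2rb, Il2rg, Il4ra, Il7r, Il15ra, Il6ra and Il10rb kept their direction and call in all of these, and the 3 ratios in the 3 alternatives run for them and without each mouse. Il7r fell short of 2-fold under 4 of the 7 alternatives and without 6 of the 14 mice, which left 2 genes called at 2-fold or more. Il21r lost its call with RLE factors (−0.145, adjusted p = 0.0543) and with a CPM filter (above 1 CPM in 6 samples or more) (−0.145, adjusted p = 0.0579) and ranged from −0.18 to −0.12 without 1 mouse. It was lost without CP CML replicate 2, 3, 4 or 6 or BC CML replicate 3, 4, 5 or 6. Il9r ranged from −0.40 to −0.22 without 1 mouse. Il10ra changed sign with DESeq2 (0.00217), RLE factors (0.00223), that filter (0.00297) and the replicate block (0.0684, adjusted p = 0.382) and ranged from −0.0311 to 0.0461 without 1 mouse. The groups share replicate numbers 1 to 6, but same-numbered mice did not deviate together (correlations −0.273 to 0.356), so the numbers were not read as pairs. With the replicate block 8 receptor genes were called, 5 higher and 3 lower, and the block changed no call among them. Of 33 named genes of the lists, 26 kept direction and call in every alternative run (chosen after seeing the data). Ifnlr1 and Il2 did not pass the CPM filter and had no value under it. Without BC CML replicate 5 Il21 was at 0.39 in place of 0.81 and kept its call. The exceptions were Il2, Stat3, Stat6 and Jak3, which lost calls, Il2ra, called without BC CML replicate 6 (0.18, adjusted p = 0.0455), Il4 (−0.10 with the replicate block, −0.0511 to 0.177 without 1 mouse) and Il6st (−0.0377 to 0.0572 without 1 mouse). The cause was not tested. The depth was lowest, among the receptor genes, for Il9r (151 to 289 reads per mouse) and Il15ra (186 to 715).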
